A study of Mus musculus with 2 samples.

Results

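Reg1, Reg3a, Reg3b and Reg3g are small secreted proteins of the C-type lectin family, and the 4 genes were followed cell by cell in mouse intestinal organoids, which are cultures of gut epithelium grown in a gel. They are 4 of the 15745 genes in the count table, chosen by name after their difference between the libraries and their place among absorptive cells were known. Their levels by day and along the absorptive cells are therefore a description and carry no test. All organoids were grown from wild type C57BL/6 animals aged 10 weeks, and cells of day 5 gave 1 library and cells of day 3 another. Up to day 3 all organoids had medium with 500 ng/ml R-Spondin, 100 ng/ml Noggin and 100 ng/ml EGF, to which 20% Wnt3a-conditioned medium and Y-27632 (10 µM), which blocks the kinase ROCK, were added. CHIR99021 (3 µM), which blocks GSK3, was present until day 1. From day 3 to day 5 the day 5 organoids had the 3 growth factors alone, so age in culture and medium cannot be told apart. The labels name no number of animals and no gel or passage.

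Reg proteins are made by the gut epithelium and released into the mucus. Reg3g and Reg3b bind bacterial cell walls and keep bacteria away from the epithelial surface, Reg3g against Gram-positive and Reg3b mainly against Gram-negative species, and Reg3a is a close relative of both. Reg1 was first known from the pancreas and is linked to growth of the epithelium as well as to binding of sugars. In the intestine, interleukin-22 from immune cells through STAT3, and bacterial products through MyD88, are known to raise Reg3 genes, which are made by enterocytes and Paneth cells, whereas Reg4 is a marker of secretory cells.

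The day 5 library held 1065 cells with a median of 13549 unique molecular identifiers (UMIs, 1 per captured transcript) and the day 3 library 798 cells with a median of 32063.5. Since each transcript is read at 1 end, UMIs per 1000000 of a library (CPM) can be set side by side between genes without a correction for length. For shares of cells with a UMI, 6700 UMIs were first drawn at random from every cell. Intervals cover counting error only, at the 95% level, and say nothing of the spread between cultures. The 15 enterocyte genes used below to order cells summed to 12973 CPM at day 5 and 986 CPM at day 3. Of 11 immune and stromal markers, 3 have a row in the table, with 19 UMIs at day 5 and 73 at day 3 (1.10 and 2.54 CPM). Cell names are running numbers and not barcodes, and 0 names are shared by the libraries, so shared barcodes could not be counted.

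The 4 genes lie close together on mouse chromosome 6, in a group of 6 Reg genes that spans 98.2 kb from 78370657 to 78468872 on GRCm38, all protein-coding by GENCODE M21. Their order is Reg3b, Reg3d, Reg3a, Reg2, Reg1 and Reg3g. Reg2 has no row in the table that was used here. Reg1 (ENSMUSG00000059654) spans 78422711 to 78428667, Reg3a (ENSMUSG00000079516) 78380709 to 78383827, Reg3b (ENSMUSG00000071356) 78370657 to 78373466 and Reg3g (ENSMUSG00000030017) 78466269 to 78468872, the last on the minus strand. The RefSeq starts of Reg1 and Reg3b lie inside the GENCODE genes. The stretch from 150 bases before to 50 after the RefSeq start of each gene (GRCm38.p6) is shown because neighbouring genes of one family came near their highest level at different places along the absorptive cells. Capitals mark the 29 bases that Reg3b and Reg3g hold in common across their starts, from 20 bases before to the ninth base after, and the longest part of that run which Reg1 and Reg3a hold.
Reg1, chr6:78425833-78426032, plus strand: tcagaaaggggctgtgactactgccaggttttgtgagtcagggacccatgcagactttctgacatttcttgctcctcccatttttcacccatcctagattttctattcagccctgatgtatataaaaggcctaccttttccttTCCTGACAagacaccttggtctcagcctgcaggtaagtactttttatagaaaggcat
Reg3g, chr6:78468825-78469024, minus strand: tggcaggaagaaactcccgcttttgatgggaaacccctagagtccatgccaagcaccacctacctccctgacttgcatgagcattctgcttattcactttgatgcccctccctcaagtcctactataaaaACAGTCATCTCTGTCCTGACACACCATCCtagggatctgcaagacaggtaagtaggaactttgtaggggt
Reg3b, chr6:78370735-78370934, plus strand: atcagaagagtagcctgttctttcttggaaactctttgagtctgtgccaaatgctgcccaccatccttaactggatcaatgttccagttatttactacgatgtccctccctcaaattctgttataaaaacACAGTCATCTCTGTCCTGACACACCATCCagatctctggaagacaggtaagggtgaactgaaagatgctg
Reg3a, chr6:78380559-78380758, plus strand: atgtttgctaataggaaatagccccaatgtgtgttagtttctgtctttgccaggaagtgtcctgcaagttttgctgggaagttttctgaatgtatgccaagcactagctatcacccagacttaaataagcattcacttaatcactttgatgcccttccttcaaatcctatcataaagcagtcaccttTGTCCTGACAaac
The run of 29 bases was found in 2 of 32817 mouse promoter entries of 300 bases, those of Reg3b and Reg3g. Its 8-base part TCCTGACA stands in the entries of all 4 members and in 0.823% of all entries, and not in those of Reg2, Reg3d and Reg4. It was picked as the part of the run that Reg1 holds, so nothing is read from its presence in the members. In Reg1 it runs from 7 bases before the start to base 1. In Reg3a the marked stretch lies at bases 38 to 47 after the start. Over 300 bases, Reg3a and Reg3g were alike at 71.7% of aligned bases, Reg3b and Reg3g at 69.9% and Reg3a and Reg3b at 65.9%. Reg1 was alike to the other 3 at 56.9% to 58.8%, so its promoter stood apart from theirs. Searched on both strands, the TATA box letters TATAAA were found in 3 members, with a match 30 bases before the start in Reg1, 29 in Reg3b and 27 in Reg3g, and in 13.6% of all entries. Reg1 and Reg3g held a second match elsewhere in the window. The letters TTCNNNGAA, which STAT factors bind, were found in Reg3b alone among the members, 129 bases before its start, and in 8.29% of all entries. GATAA, bound by GATA factors, was found in Reg1 and Reg3b (25.4% of entries), TTTATNG, bound by CDX factors, in Reg1 and Reg3g (10.9%, at each place overlapping the TATA letters) and TTGCNNAA, bound by C/EBP factors, in Reg3a (10.8%). CAAAGTNCA, bound by HNF4 factors, was found in none of the members (1.41%). These are matches of letters, and binding was not measured.

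The transcripts of the 4 genes share short runs of sequence, and a read that lay within such a run could match more than one of them. Reg3a and Reg3b, the most alike pair, were identical at 72.0% of aligned bases of their longest transcripts, with a longest shared run of 24 bases, and Reg3b and Reg3g at 71.6%, with a run of 35. In the last 300 bases, near which such libraries are read, the longest run shared by any pair of the 4 was 19 bases, between Reg1 and Reg3a.

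Over whole libraries, the 4 genes were abundant at day 5 and close to absent at day 3. Together they held 136289 UMIs at day 5, which is 0.786% of the library, and 374 UMIs at day 3, which is 0.00130%. In single cells of day 5 their summed share had a median of 0.505% and reached 10.9%. Reg1 made up 70.1% of the 4 genes' UMIs at day 5 and 6.68% at day 3, and Reg3g 17.9% at day 5 and 90.6% at day 3, so the leading gene was not the same.

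Reg1, the growth-linked member, had 5505 CPM (interval 5469.8 to 5539.7) in the day 5 library, against 0.869 CPM (interval 0.562 to 1.28) in the day 3 library. Those levels come from 95501 UMIs at day 5 and 25 UMIs at day 3, and the log2 ratio of day 5 over day 3 was 12.60 (12.07 to 13.26). Reg3g, the lectin against Gram-positive bacteria, was second at day 5 with 1404 CPM (interval 1387 to 1422), and first at day 3 with 11.8 CPM (interval 10.6 to 13.1). Its log2 ratio was 6.89 (6.74 to 7.06). Reg3g thus had the smallest ratio of the 4, with the highest day 3 level and a day 5 level below that of Reg1. Reg3b, active against Gram-negative species, had 819 CPM (interval 806 to 833) in the day 5 library, against 0.348 CPM (interval 0.167 to 0.639) in the day 3 library. Its log2 ratio was 11.13 (10.32 to 12.26). Reg3a was the lowest of the 4, with 128 CPM (interval 122 to 133) from 2216 UMIs at day 5 and 0 UMIs at day 3. A count of 0 allows up to 3 UMIs, or 0.104 CPM, so Reg3a was at least 1225-fold higher at day 5. At day 5 no 2 of the 4 intervals overlapped, and at day 3 those of Reg1 and Reg3b did.

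All 4 members passed 2-fold in the higher direction with at least 20 UMIs over both libraries, as did 9.00% of the 11961 genes compared, and nothing is read from this count because the genes were chosen for it. Of all genes compared, 1077 were higher and 2055 lower, and with TMM scaling, which adds 0.31 to each log2 ratio, 1567 were higher and 1117 lower. Reg3d, which lies between Reg3b and Reg3a, had 17 UMIs at day 5 and 0 at day 3, under the minimum of 20, and against 3 UMIs at day 3 it was at least 9.40-fold higher at day 5. Reg4, the secretory member, had 34.1 CPM at day 5 and 32.0 CPM at day 3, and its log2 ratio was 0.09 (-0.06 to 0.24).

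Among cells, Reg1 and Reg3g were widespread at day 5 and Reg3b and Reg3a were not. After thinning, Reg1 was detected in 79.7% of cells (77.2 to 82.1) at day 5 and 0.251% (0.0304 to 0.902) at day 3. Reg3g was detected in 76.9% (74.3 to 79.4) at day 5 and 6.64% (5.01 to 8.60) at day 3. Both genes were thus found in most cells of day 5. Reg3b was detected in 46.6% (43.5 to 49.6) at day 5 and 0.125% (0.00317 to 0.696) at day 3. Reg3a was detected in 34.3% (31.4 to 37.2) at day 5 and in 0 of 798 cells at day 3, which allows a share of up to 0.376%. Without thinning, the shares with a UMI were 92.7% at day 5 and 2.26% at day 3 for Reg1, 88.1% at day 5 and 23.4% at day 3 for Reg3g, 60.6% at day 5 and 1.25% at day 3 for Reg3b, and 45.4% at day 5 and 0% at day 3 for Reg3a. Free RNA can put UMIs into cells that do not make a gene, and the values that bear on this are given with the lowest cells below.

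**Figure D1:**
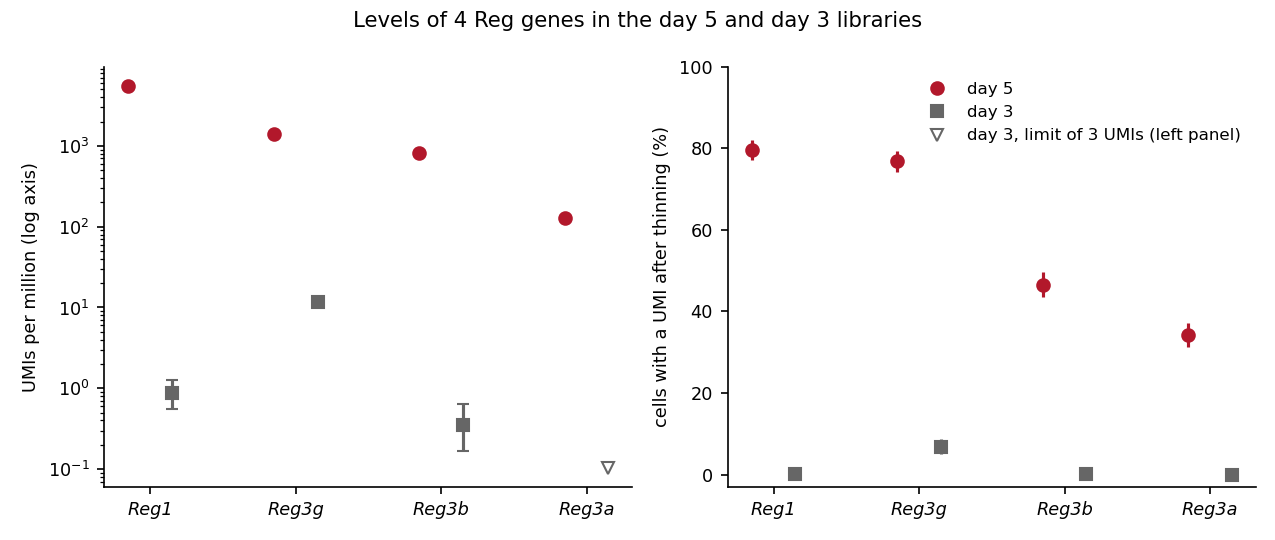
Levels of the 4 Reg genes in the day 5 library (red circles) and the day 3 library (grey squares). Left, CPM on a log axis with exact Poisson 95% intervals, and a triangle at the limit of 3 UMIs for Reg3a at day 3. Right, percent of cells with a UMI after thinning to 6700 UMIs, with exact binomial intervals. Reg1 is highest at day 5 (5505 CPM) and Reg3g at day 3 (11.8 CPM).

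Reg3b was the most concentrated of the 4. The cells that held 50% of its day 5 UMIs numbered 42, or 3.94% of cells, against 69 for Reg3a, 136 for Reg3g and 151 for Reg1. A single cell held 640 Reg3b UMIs among 8154, or 78489 CPM, and the highest cell of Reg1 reached 56975 CPM and that of Reg3g 20026 CPM. Of the 42 cells that held 50% of the Reg3b UMIs, 6 were also among the 151 such cells of Reg1, which is 14.3% of the Reg3b set and 3.97% of the Reg1 set. The 151 cells are 14.2% of all day 5 cells. That share is no fair measure, because both sets leaned to the top of the enterocyte order described below. Its highest quintile, of 213 cells, held 30 of the 42 Reg3b cells and 64 of the 151 Reg1 cells. Whether the overlap differs from that of cells at a like place in the order was not tested. With Reg3g the Reg3b set shared 18 cells, 42.9% of the Reg3b set and 13.2% of the Reg3g set. The 136 cells of the Reg3g set are 12.8% of all cells. The highest quintile held 61 of these 136, so the same limit applies.

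To place the genes along the absorptive cells, day 5 cells were ordered by an enterocyte score. It is the mean log2 level of 15 genes of digestion and of sugar and fat uptake, with no Reg gene among them. Fabp1, Rbp2, Sis, Lct and Alpi, named below, are among the 15, so their course along the order is in part fixed by it. The cells were cut into 10 groups of 106 or 107 cells, called deciles, from low to high score. Reg1 was at 140, 116 and 119 CPM in deciles 1 to 3, 1063 in decile 4, 2879 in decile 5, 7750.3 in decile 6, 12622 in decile 7, 15587 in decile 8, 17456 in decile 9 and 16225 in decile 10. It thus climbed in the middle of the order and was nearly flat at the top. In decile 4 a single cell held most of its UMIs, and without that cell the level there was 329 CPM. Reg3g was at 105, 125 and 232 CPM in deciles 1 to 3, 353 in decile 4, 1382 in decile 5, 1877 in decile 6, 2829 in decile 7, 3096 in decile 8, 4237 in decile 9 and 4083 in decile 10. It climbed less steeply than Reg1, was higher in decile 3 than in deciles 1 and 2, while Reg1 stayed low over all 3, and differed little between deciles 9 and 10. Reg3b was at 18.5, 49.2 and 43.1 CPM in deciles 1 to 3, 78.1 in decile 4, 122 in decile 5, 619 in decile 6, 1058 in decile 7, 1822 in decile 8, 3064 in decile 9 and 5072 in decile 10. Reg3a was at 2.42, 3.68 and 1.69 CPM in deciles 1 to 3, 11.2 in decile 4, 50.8 in decile 5, 103 in decile 6, 169 in decile 7, 287 in decile 8, 507 in decile 9 and 707 in decile 10. In this order Reg3b and Reg3a were highest in decile 10, where Reg3b stood above Reg3g, also without its highest cell (4478 CPM). Ordered by the summed share of the same 15 genes in place of their mean log2 level, Reg3b was at 3229 CPM in decile 9 and 3114 CPM in decile 10, where Reg3g was at 3128 CPM, so that neither statement on Reg3b holds in that order.

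Measured as a share of each gene's own highest level, the 4 genes fell into an early and a late pair. Reg1 and Reg3g first reached 50% of their highest decile in decile 7, and Reg3b and Reg3a in decile 9. With 10% of the highest decile as the mark, Reg1 and Reg3g came in decile 5 and Reg3b and Reg3a in decile 6. Measured against each gene's own low level they did not fall into the same pairs. Decile 4 over the mean of deciles 1 to 3 was 4.30 for Reg3a, 2.11 for Reg3b and 2.29 for Reg3g. For Reg1 it was 8.51, with 329 CPM in decile 4 without the single cell against a mean of 125 CPM in deciles 1 to 3. From decile 6 to decile 10 the level was multiplied by 2.09 for Reg1 and 2.18 for Reg3g, but by 6.86 for Reg3a and 8.20 for Reg3b. Among well-known enterocyte genes, Fabp1, a fatty acid carrier that is itself in the ordering score, reached 50% in decile 6. It was multiplied by 1.81 from decile 6 to 10, close to the early pair. Apoa4, a lipoprotein gene outside that score, reached 50% in decile 9 and was multiplied by 14.3, more than the late pair. Ordered by a second list of 9 villus tip and lipoprotein genes, or by the summed share of the first list, the early pair again came before the late one, in deciles 7 and 7 against 9 and 10, and in deciles 6 and 6 against 9 and 8 (Reg1 and Reg3g against Reg3a and Reg3b).

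**Figure D2:**
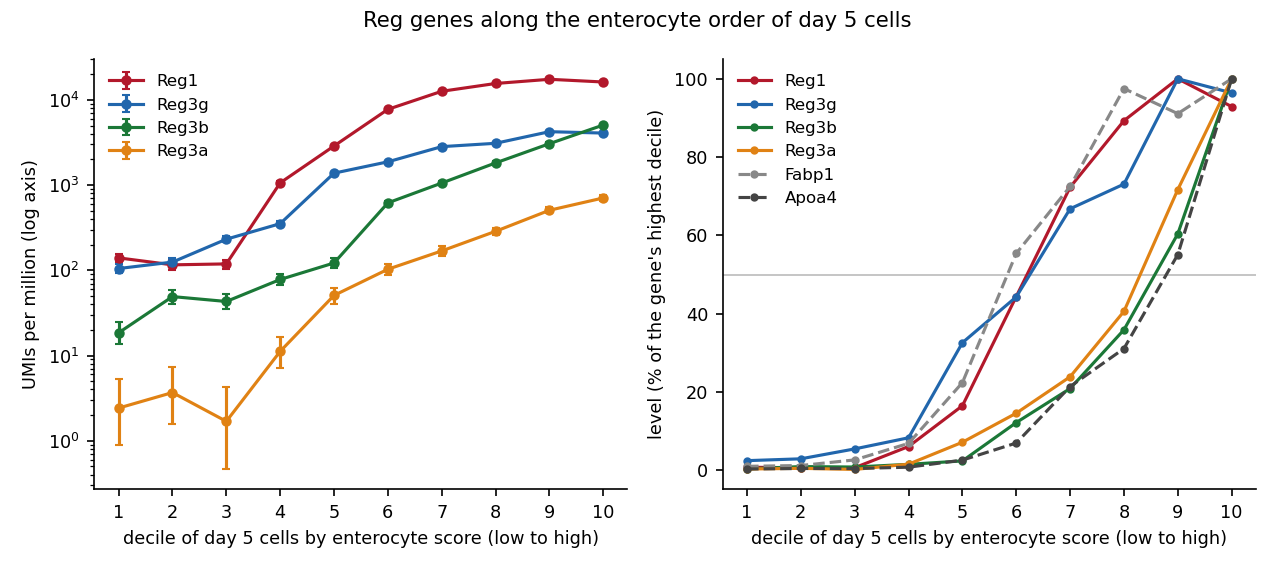
The 4 Reg genes over deciles of day 5 cells ordered by enterocyte score, low to high. Left, CPM on a log axis with exact Poisson 95% intervals. Right, the same levels as percent of each gene's highest decile, with a grey line at 50%. Dashed lines show Fabp1, which is in the ordering score, and Apoa4, which is not. Reg1 and Reg3g first pass 50% in decile 7, next to Fabp1 in decile 6, and Reg3a and Reg3b in decile 9, with Apoa4.

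Between the highest and the lowest of 5 groups of 213 cells (quintiles) of the order, every member was higher in the highest, and Reg3g least so. Reg1 was at 16883 CPM (16711 to 17056) in the highest quintile and 129 CPM (119 to 139) in the lowest, a log2 ratio of 7.03. Reg3a was at 600 CPM in the highest quintile and 3.01 CPM in the lowest, the largest ratio of the 4 at 7.59, and Reg3b at 3998 CPM in the highest and 32.9 CPM in the lowest, at 6.92. Reg3g was at 4166 CPM in the highest quintile and 114 CPM in the lowest, a ratio of 5.18. All 4 were at least 2-fold higher in the highest quintile, as were 19.1% of the 9685 genes compared in this contrast, and again nothing is read from the count. Reg4 ran the other way, with a log2 ratio of -4.10. The depth of cells fell along the order, with a median of 20957 UMIs per cell in decile 1 and 9077 in decile 10. With the 320 day 5 cells of at least 17601 UMIs, the lowest total of a day 3 cell, the log2 ratios were 5.59 for Reg1, 6.33 for Reg3a, 5.66 for Reg3b and 4.52 for Reg3g.

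The low deciles held few UMIs of the members, and Reg3g stood out among them. In deciles 1 to 3 the mean level was 2.27% of the library's level for Reg1, 2.03% for Reg3a and 4.51% for Reg3b, near the 4.83% of Fabp1 and the 3.03% of Apoa1, but 11% for Reg3g. Defa24, a Paneth cell defensin, gives a measure of background in cells that should lack it. In deciles 5 to 10 it was at 78.0 to 108 CPM, or 4.05% to 5.63% of its library level. It was detected there in 32.7% to 55.7% of thinned cells. Reg1 was detected in 46.2% to 54.2% of the cells of deciles 1 to 3, Reg3b in 9.35% to 15.1%, Reg3a in 0% to 1.87%, and Reg3g in 36.4% and 45.3% of the cells of deciles 1 and 2. None of these shares is above the highest of Defa24, but library levels differ between genes, so this sets no bound for the members. No expression is read from the shares. As a percent of its library level, Reg3g was at 7.49%, 8.90% and 16.5% in deciles 1 to 3. In decile 3 Reg3g was detected in 57.9% of cells. The ratio of Reg3g to Reg1 UMIs was 0.754 in decile 1, 1.08 in decile 2 and 1.95 in decile 3, and 0.199 to 0.252 in deciles 6 to 10. That of Reg3b to Reg1 was 0.133, 0.423 and 0.363 in deciles 1 to 3. It was 0.0798, 0.0839, 0.117, 0.176 and 0.313 in deciles 6 to 10, so it rose again at the top. How much of the UMIs in the low deciles is free RNA was not tested.

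**Figure D3:**
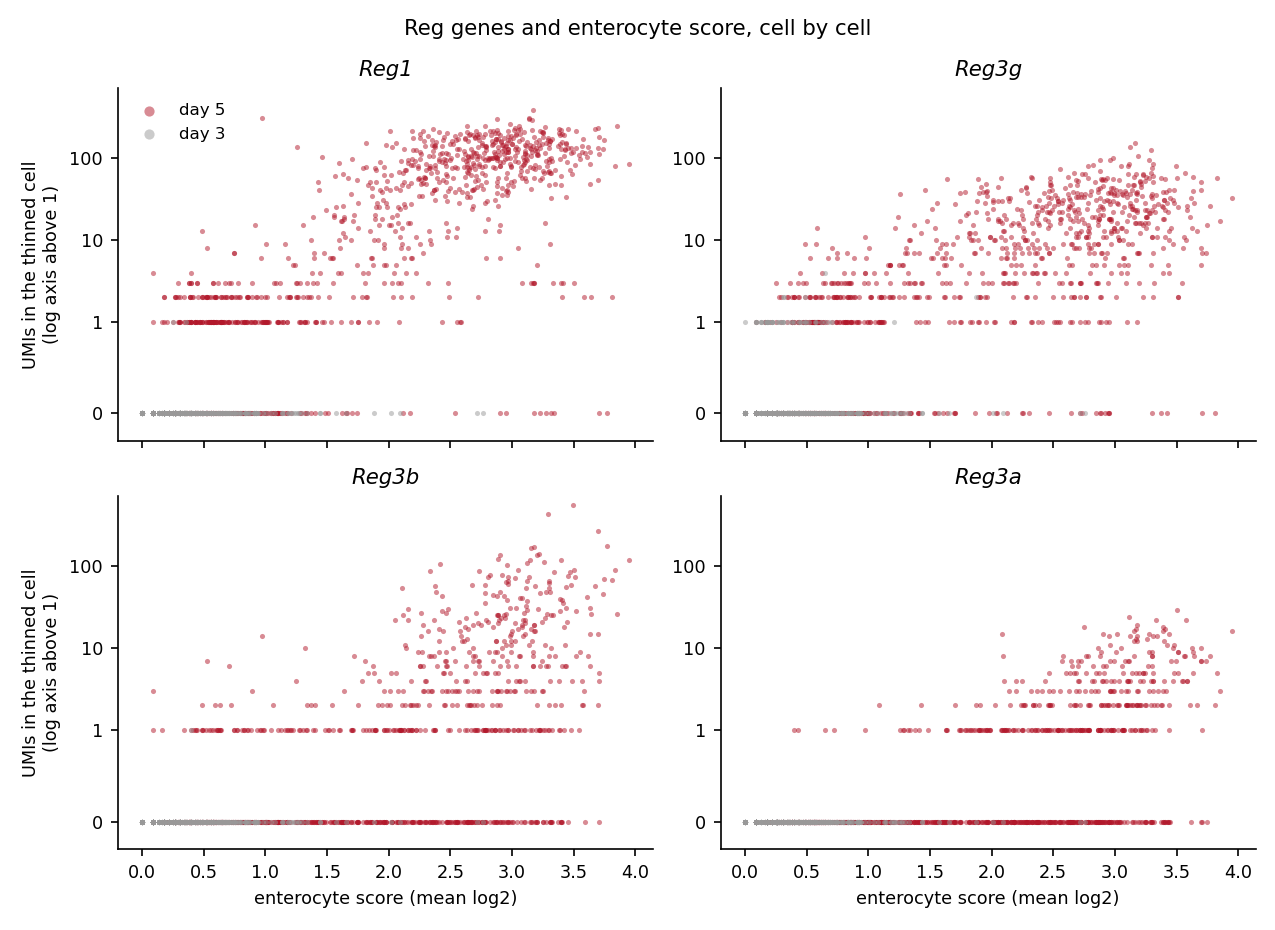
Each point is a cell, day 5 in red and day 3 in grey, by its enterocyte score (x axis, mean log2 level of 15 genes) and its UMIs of 1 Reg gene after thinning to 6700 UMIs (y axis, logarithmic above 1). Cells with 10 or more UMIs of Reg1 or Reg3g appear at lower scores than most of those with 10 or more of Reg3b or Reg3a, and some cells of high score hold few Reg1 UMIs.

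More of the 4 genes were detected per cell along the order, with any background detections counted in. In the 2 lowest quintiles 0 of 426 cells held all 4 genes after thinning, and in quintiles 3, 4 and 5, counted from the lowest, 15.5%, 39.4% and 60.6% did. In the lowest quintile 56 of 213 cells held none of the 4 and 102 held 1. In the highest quintile every cell held at least 1, 69 held 3 and 129 held all 4.

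Within the 426 cells of the 2 highest quintiles Reg1 no longer went with the 3 Reg3 genes. Over all 1065 day 5 cells the log2 levels after thinning had a Pearson correlation of 0.64 between Reg1 and Reg3g, 0.45 between Reg1 and Reg3b and 0.46 between Reg3a and Reg3b. Within the upper 426 cells, Reg1 had -0.17 with Reg3a, -0.20 with Reg3b and -0.08 with Reg3g, while the 3 Reg3 genes kept weak positive values, 0.18 for Reg3a with Reg3b, 0.19 for Reg3a with Reg3g and 0.25 for Reg3b with Reg3g. In the 213 cells of quintile 3 most values were weak too. Reg1 had 0.15 with Reg3a, 0.04 with Reg3b and 0.17 with Reg3g there. Reg3a had 0.11 with Reg3b and 0.12 with Reg3g, and Reg3b had 0.31 with Reg3g. The cells share 1 library and their depth falls along the order, so these are descriptions and carry no p. With the enterocyte score, all 4 were positive over all cells, at 0.83 for Reg1, 0.73 for Reg3g, 0.62 for Reg3a and 0.62 for Reg3b, whereas in the upper 426 cells Reg1 was at -0.02 and Reg3g at 0.13, against 0.29 for Reg3b and 0.38 for Reg3a.

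When the same 426 cells were ordered by the villus tip and lipoprotein genes instead, the late pair climbed again. Of that list of 9 genes, 4 were at least 2-fold higher in the highest than the lowest enterocyte quintile of day 5. They were Apoa1, Apoa4, Apoc3 and Creb3l3. Slc28a2 was at least 2-fold lower, Nt5e and Enpp3 were under the minimum of UMIs, and Nt5e had none at day 5. A place at the villus tip is therefore not read from this score. From the first to the last of 5 groups by that score, Reg3b was at 773, 1952, 1827, 2714 and 6796 CPM and Reg3a at 140, 276, 349, 544 and 803 CPM. Reg3g was at 2288, 2855, 3856, 3971 and 5170.5 CPM, a smaller climb, and Reg1 at 12426, 15801, 16488, 16359.9 and 16402 CPM. Reg1 thus differed little beyond the first group, and Fabp1 lay between 9892 and 11632 CPM in all 5. The median depth of a cell was 12923 UMIs in the first group and 8997 in the last, and its part in these levels was not tested.

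**Figure D4:**
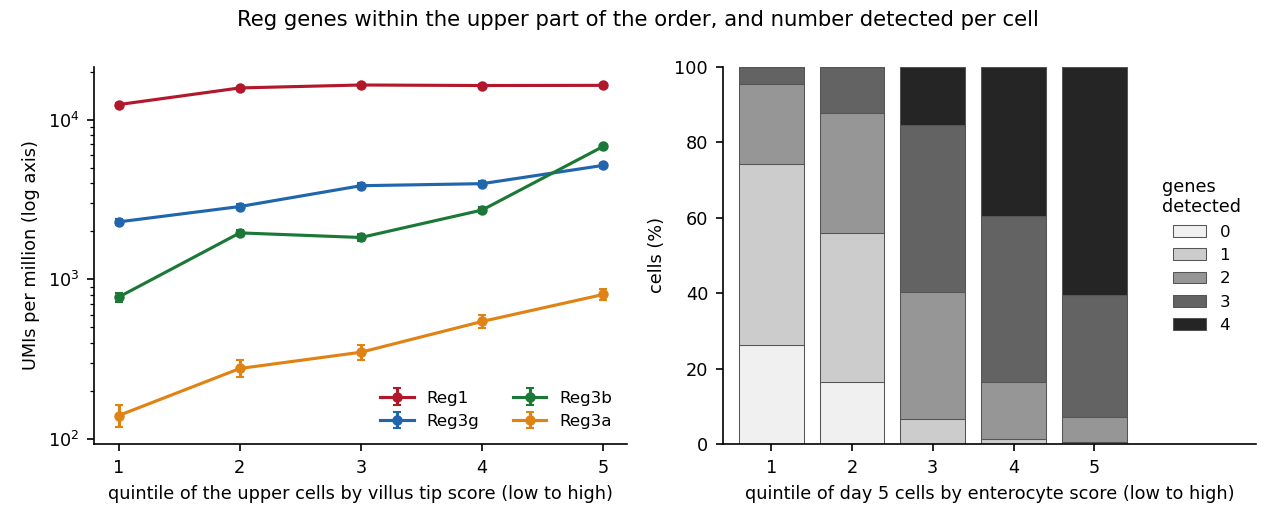
Left, the 4 Reg genes in 5 groups of the 426 upper day 5 cells, in CPM on a log axis with exact Poisson 95% intervals. The groups run from low to high score of the villus tip and lipoprotein list, which follows its lipoprotein genes above all. Reg3b reaches 6796 CPM in the last group, above Reg3g, while Reg1 is level from the second group on. Right, percent of day 5 cells that hold 0 to 4 of the genes after thinning, by quintile of enterocyte score, with all 4 held by 60.6% in the last.

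A small set of cells high in the enterocyte order held little Reg1 but much of the other 3 genes. Of the 426 upper cells, 30 (7.04%) held 3 or fewer Reg1 UMIs after thinning, only 5 held 4 to 9 and 10 held 10 to 19, and the remaining 381 held 20 or more. The line at 3 UMIs was drawn after the values per cell were seen. In the 30 cells Reg1 was at 247 CPM (194 to 309), and in the other 396 at 16335 CPM (16218 to 16453), which is the difference by which they were chosen. Reg3b was at 5433 CPM (5175 to 5699) in the 30 cells and 2385 CPM in the other 396, and Reg3a at 1013 CPM (903 to 1131) in the 30 and 351 CPM (334 to 369) in the others. Reg3g was at 4397 CPM (4166 to 4638) in the 30 cells and 3438 CPM (3384 to 3492) in the others. Among enterocyte genes the differences were of several sizes, and all those named here but Apoa1 are in the score by which the upper cells were taken. Fabp1 was at 10939.8 CPM in the 30 cells and 10579 CPM in the others, and Rbp2, a retinol carrier, at 5056 CPM in the 30 and 5263 CPM in the others. Lct, the lactase, was at 153 CPM (112 to 203) in the 30 cells and 43.4 CPM (37.5 to 49.8) in the others. Sis, the sucrase, was at 4076 CPM in the 30 and 2988 CPM in the others. Apoa1 was at 13549 CPM in the 30 cells and 9459 CPM in the others, and Alpi, the alkaline phosphatase, at 178 CPM in the 30 and 396 CPM in the others. Of the 30 cells, 21 lay in the highest quintile and 18 in cluster 9 described below, and their median depth was 9527 UMIs, against 10846.5 in the others.

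Cycling cells held little of any member. By quintile of a score of 15 cell cycle genes, low to high, Reg1 was at 8839, 13692, 8504, 2604 and 280 CPM, Reg3g at 2082, 3145, 2279, 666 and 278 CPM, Reg3b at 891, 1703, 2011, 400 and 39.0 CPM, and Reg3a at 125, 363, 224, 86.8 and 5.13 CPM. Every cell of the lowest quintile had a cycling score of 0, as did some cells above it, and the median score was 0.0878. Cells of equal score were split in the order in which they were listed, so no trend is read among the lower quintiles. The most cycling cells were the lowest in all 4. The correlation with the cycling score over all day 5 cells was -0.57 for Reg1, -0.45 for Reg3g, -0.36 for Reg3b and -0.34 for Reg3a. Enterocyte and cycling scores run against each other in these cells, so the cycling order repeats much of the enterocyte order. Within the 2 lowest enterocyte quintiles, the more cycling 213 cells had Reg3g at 193 CPM and the less cycling 213 at 207 CPM, and Reg1 at 143 CPM in the more cycling and 572 CPM in the less cycling. A single cell, described with the clusters, held most of the Reg1 UMIs of the less cycling cells, which were at 205 CPM (191 to 219) without it.

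Secretory cells had lower levels of the 4 genes than the rest of the library. The 53 day 5 cells with the highest secretory score, made of Paneth, goblet and enteroendocrine genes, had Reg1 at 1175 CPM, Reg3g at 397 CPM, Reg3b at 180 CPM and Reg3a at 12.9 CPM, and the other 1012 cells had 5772, 1466, 858 and 135 CPM of the same genes. Within the 2 lowest enterocyte quintiles, the 44 such cells had Reg1 at 154 CPM (129 to 183), Reg3g at 133 CPM (110 to 160), Reg3b at 21 CPM (12.5 to 33.2) and 0 Reg3a UMIs. The other 382 cells there had Reg1 at 357 CPM (345 to 371), Reg3g at 206 CPM (196 to 216), Reg3b at 48.4 CPM (43.7 to 53.4) and Reg3a at 4.98 CPM (3.58 to 6.76). Without the single cell richest in Reg1, those others had Reg1 at 173 CPM (164 to 182) and Reg3g at 197 CPM (187 to 207). The intervals leave out the spread between cells, so no test is read from whether they overlap. Reg4 gave the opposite picture, at 635 CPM (582 to 690) in the 44 secretory cells and 3.04 CPM (1.97 to 4.49) in the 382 others. The correlation with the secretory score was 0.78 for Reg4 and between -0.16 and -0.08 for the 4 members.

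Clusters of day 5 cells, made without the Reg genes, showed the same order. Reg1 was highest in cluster 10 (18077 CPM, 28 cells) and cluster 9 (16467 CPM, 201 cells), both unnamed, followed by cluster 8, which is Enterocyte-like (15131 CPM, 140 cells). Cluster 9, led by the brush border and transport genes Ggt1, Slc5a4b and Slc15a1, had the most Reg3b (4326 CPM), Reg3a (673 CPM) and Reg3g (4316 CPM). Cluster 10 had the most Reg1 but less of the late pair, with Reg3b at 1142 CPM and Reg3a at 102 CPM. Clusters 4 and 7, led by the endothelin genes Edn1 or Edn2, held intermediate levels, with Reg1 at 3795 CPM in cluster 4 and 10036 CPM in cluster 7. The Proliferating-like cluster 1 had Reg1 at 399 CPM and Reg3g at 387 CPM, nearly equal, and clusters 2 and 3 were lower in both. The mixed secretory cluster 5 had the lowest median enterocyte score (0.438), but Reg1 at 835 CPM and Reg3b at 188 CPM, above clusters 1 to 3. A single cell held 229 of its 630 Reg1 UMIs, and its median cell was at 143 CPM of Reg1. For Reg3b a single cell held 88 of 142 UMIs, and the median cell was at 0 CPM. Reg3g (374 CPM) and Reg3a (7.95 CPM) of cluster 5 were below those of cluster 1. Cluster 6, of low score (0.648), had Reg3g at 1219 CPM, near the 1234 CPM of cluster 4. Clusters and enterocyte order come from the same cells, so the clusters describe the order again and do not test it.

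**Figure D5:**
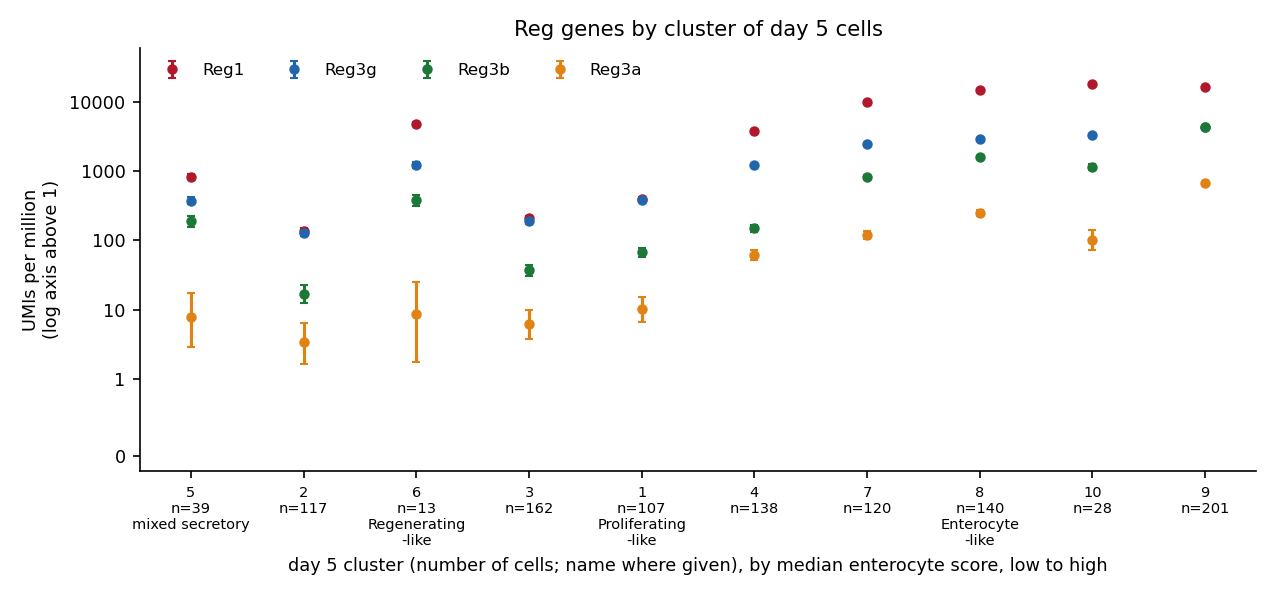
Levels of the 4 Reg genes in the 10 clusters of day 5 cells, arranged by median enterocyte score from low (left) to high (right), in CPM with exact Poisson 95% intervals, on an axis that is logarithmic above 1. Reg1 reaches 18077 CPM in cluster 10, and Reg3b and Reg3a peak in cluster 9, where Reg3g (4316 CPM) lies under the point of Reg3b (4326 CPM). Of the Reg1 UMIs of the Regenerating-like cluster 6 (13 cells), 1 cell holds 1524.

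The cell with the most Reg1 UMIs held few UMIs of enterocyte genes. It held 1524 Reg1 UMIs among 33467, or 45537 CPM, with 84 Reg3g and 66 Reg3b UMIs but 1 Fabp1 and 3 Apoa1 UMIs, and it lay in the Regenerating-like cluster 6 with 40 UMIs of Msln, a surface protein, and 26 of Clu, which encodes clusterin. Without it, decile 4 of the order had Reg1 at 329 CPM (305 to 355) in place of 1063 CPM, and cluster 6 at 573 CPM (492 to 662) in place of 4878 CPM. More UMIs in all were held by 61 day 5 cells, and doublets were not called. In the other 12 cells of cluster 6, Reg3g was at 1082 CPM (970 to 1203), with 105 and 135 of its UMIs in 2 cells that held 69 and 48 Fabp1 UMIs and 0 of Clu.

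At day 3 the few member UMIs were spread over all kinds of cells. Reg3g had 339 UMIs in 187 of 798 cells, 118 of them with 1 UMI, and at most 12 in a cell. By quintile of the enterocyte score at day 3, low to high, these UMIs numbered 82, 75, 58, 64 and 60, an almost even spread. Over the 12 clusters of day 3 cells its level lay between 4.58 and 16.0 CPM. The highest was in the Enterocyte-like cluster 7, at 16.0 CPM, but the Stem-like cluster 6 had 15.6 CPM and the Enterocyte-like cluster 11, of higher enterocyte score, had 8.13 CPM. Reg1 had 25 UMIs in 18 cells and Reg3b 10 UMIs in 10 cells. Whether free RNA gave these even counts was not tested.

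Day 3 cells with a high enterocyte score did not hold the day 5 levels. In the range of scores of day 5 quintile 3, the 213 day 5 cells had Reg1 at 5234 CPM (5157 to 5311) and the 7 day 3 cells had 1 Reg1 UMI (5.59 CPM). In the same cells Fabp1 was at 4554 CPM in the 213 day 5 cells and 16065 CPM in the 7 day 3 cells, and Reg3g at 1621 CPM in the day 5 cells against 33.5 CPM, from 6 UMIs, in the day 3 cells. In the range of quintile 4, the 213 day 5 cells had Reg1 at 14049 CPM and the 2 day 3 cells had 0 UMIs of all 4 members, with Fabp1 at 10035 CPM in the day 5 cells and 6695 CPM in the day 3 cells. These are 9 cells of 1 library, and 4 of all 798 day 3 cells lay above the median score of day 5.

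The genes most like each member were named by their correlation over cells. Over 1065 day 5 cells and 4990 genes detected in 10% of them or more, the 5 highest Pearson correlations with Reg1 were those of Rbp2 (0.82), Sis (0.78), Fabp1 (0.78), the lipoprotein gene Apoa1 (0.77) and Gsta1, a glutathione transferase (0.77). For Reg3g they were Sis (0.72), Rbp2 (0.70), Apoa1 (0.69), Fabp1 (0.68) and Clec2h, a lectin-like gene (0.66). Apoa1 was among the first 5 for all 4 members, while Aldh1a1, Apoa4 and Guca2b were there for Reg3a and Reg3b. For Reg3a the first 5 were Aldh1a1, which makes retinoic acid (0.66), Apoa4 (0.63), Guca2b, which encodes uroguanylin (0.62), Apoa1 (0.61) and Cyp3a11 (0.60), and for Reg3b Apoa1 (0.63), Guca2b (0.63), Apoa4 (0.62), the protease inhibitor gene Spink1 (0.62) and Aldh1a1 (0.60). The median over all genes was between -0.01 and 0.00. Reg4 was most like Defa17 (0.71), Defa24 (0.67), Itln1 (0.66), Spink4 (0.65) and Fcgbp (0.60), all genes of Paneth or goblet cells.

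Within the 426 upper cells and 4748 genes, correlations were weaker. Reg1 went with Prap1 (0.31), Papss2 (0.29), Gpx1 (0.27), Alpi (0.24), and Pigr, the antibody transporter (0.24). Reg3b went with Crip1 (0.39), Guca2b (0.38), Fam213a (0.35), Spink1 (0.34) and mt-Nd4 (0.33), and Reg3a with Aldh1a1 (0.44), Guca2b (0.38), mt-Co1 (0.37), Scp2 (0.36) and Apoa4 (0.36). Reg3g went with Guca2b (0.29), Apoa1 (0.24), Apoa4 (0.24), Guca2a, the guanylin gene (0.23), and Apoc3 (0.23). Only 1 of the 4748 genes had a higher correlation with Reg3g than Reg3b had.

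Genes that carry the signals known to raise Reg genes were mostly within 2-fold between the days. Of 24 such genes, 23 had a row and 19 reached 20 UMIs, with 0 at least 2-fold higher at day 5 and 2 at least 2-fold lower, against 9.00% higher and 17.2% lower among all genes. Their median log2 ratio was -0.14, and that of all genes compared -0.34. The highest were Socs3, a STAT3 target that dampens the signal, at 5.99 CPM at day 5 and 3.30 CPM at day 3 (0.86, and 1.17 with TMM scaling, which passes 2-fold), and Nfkbiz, an NF-kB cofactor, at 26.6 CPM at day 5 and 17.3 CPM at day 3 (0.62). The lowest were the receptor genes Tlr2, at 0.288 CPM at day 5 and 1.25 CPM at day 3 (-2.0), and Il18r1, with 0 UMIs at day 5 and 31 at day 3. Il22ra1, the interleukin-22 receptor subunit, was under the minimum of 20 UMIs. Along the day 5 order 17 of these genes reached 20 UMIs, with 4 at least 2-fold higher in the highest quintile than in the lowest and 0 lower, against 19.1% higher and 27.5% lower among all genes. Their median log2 ratio was 0.58, against -0.18 over all genes compared. Nfkbiz had a ratio of 2.0, and Il17rc, an interleukin-17 receptor gene, was at 43.1 CPM in the highest and 14.8 CPM in the lowest (1.54). Stat3 itself was at 38.0 CPM in the highest and 13.7 CPM in the lowest (1.47).

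Other defence genes of the epithelium differed less between the days than the 4 Reg genes. Of 20 listed genes 16 reached 20 UMIs between the days, of which 9 were at least 2-fold higher at day 5 and 1 lower, against 9.00% and 17.2% of all genes, with a median log2 ratio of 1.06. Ccl25, a chemokine, was at 588 CPM at day 5 and 97.5 CPM at day 3 (2.59), and Saa3, an acute-phase gene, at 3.57 CPM at day 5 and 0.904 CPM at day 3 (1.97). At the low end were Fut2, which adds fucose to surface sugars, at 0.231 CPM at day 5 and 1.60 CPM at day 3 (-2.64), and Duoxa2, an oxidase partner, at 0.749 CPM at day 5 and 1.49 CPM at day 3 (-0.96). Along the day 5 order, 7 of 10 were at least 2-fold higher in the highest quintile and 3 lower, against 19.1% and 27.5% of all genes, with a median of 1.27. Il18, a cytokine gene, was at 117 CPM in the highest quintile and 3.01 CPM in the lowest (5.23), and Lypd8, a secreted barrier protein, at 1567 CPM in the highest and 401 CPM in the lowest (1.97). Itln1 and Ang4, defence genes of Paneth and goblet cells, were at the other end, at -4.40 and -6.67.

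Of 14 transcription factor genes of enterocytes, 3 were at least 2-fold higher at day 5 and 0 lower, against 9.00% and 17.2% of all genes, with a median of 0.49, and 5 were with TMM scaling. The 3 were Creb3l3, at 104 CPM at day 5 and 3.34 CPM at day 3 (4.95), Maf, at 86.7 CPM at day 5 and 4.94 CPM at day 3 (4.13), and Hnf4g (1.37). At the low end, Klf4 was at 10.5 CPM at day 5 and 19.7 CPM at day 3 (-0.90), and Hnf4a at 122 CPM at day 5 and 178 CPM at day 3 (-0.54). Along the day 5 order, Creb3l3 was at 361 CPM in the highest quintile and 2.58 CPM in the lowest (7.07), and Maf at 237 CPM in the highest and 9.88 CPM in the lowest (4.57), with Klf5 (-0.92) and Cdx1 (-0.93) at the low end. The lists are described by these counts, and none was tested against other genes.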

How the data were processed

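Single-cell libraries were made with a droplet-based 3' kit, per the labels' protocols. The authors deposited UMI counts per gene and cell. The submitters' processing notes name Cell Ranger 1.3.0 and the build mm10. The deposited log2 values equal log2 of 1 plus the scaled count. The filters on cells and genes, and any removal of doublets, were not stated in any label or header read. Doublets were not called and all 1863 cells were kept.

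Identifiers were matched to symbols in 15681 of 15745 cases. The members and gene lists were chosen with earlier results of these data known. UMIs were summed over cells and scaled to 1000000 (CPM). Ratios had 0.5 UMI added to each sum, except against a count of 0, where 3 UMIs were set. A gene counted as higher or lower at 2-fold with at least 20 UMIs over both sides. Intervals are exact Poisson, exact binomial for shares and conditional binomial for ratios, at 95%. With 1 library per day no test was made. Each cell was thinned to 6700 UMIs (seed 1) for scores, shares and correlations, as log2 of 1 plus UMIs per 10000. Clusters were made per library with scanpy 1.11.5 (Leiden, resolution 1, 2000 variable genes, 30 components, 15 neighbours) without Reg genes, and named where 3 of 25 leading genes were markers of 1 type. The genes named were the 4 members, the 5 most correlated genes per member, the 2 highest and 2 lowest of each pathway list, and Fabp1, Apoa1, Apoa4, Defa24 and Muc2 for comparison. Msln, Clu, Rbp2, Lct, Sis, Alpi, Stat3, Il22ra1, Hnf4g, Reg3d and the cluster leaders were named after their values were seen. Muc2 was at 64.3 CPM at day 5 and 7.34 CPM at day 3. Alternatives used TMM factors of edgeR 4.0.16 on the counts. The steps were checked on simulated data. Analyses ran in Python 3.11.15 with scipy 1.17.1, pandas 2.3.3, Biopython 1.88 and numpy 2.4.6.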

Additional observations from a re-analysis of the deposited data

How the results depend on the processing

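Of 80 values recomputed, 45 stayed within the counting interval, the decile or the tolerance of the value reported, 35 moved past it and 0 changed direction. No paired analysis was possible because there is 1 library per day. With TMM factors, which shift every log2 ratio by 0.31, the day 5 over day 3 ratio was 7.21 for Reg3g and at least 10.57 for Reg3a. The calls were then 1567 genes higher and 1117 lower, against 1077 and 2055, so that 58.4% of calls were higher, against 34.4%. With each cell weighing alike, Reg3g was at 7.36. Differences of the means of the authors' log2 values, on a scale that compresses low counts, were 5.12 for Reg1, 1.27 for Reg3a, 2.18 for Reg3b and 3.67 for Reg3g. With the 320 day 5 cells of at least 17601 UMIs, the ratios were 10.57 for Reg1, at least 7.87 for Reg3a, 9.04 for Reg3b and 5.61 for Reg3g, and the cause was not tested. With no minimum of UMIs 1824 genes were called higher, and at 1.5-fold 1766 higher and 4370 lower.

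Between the highest and lowest quintile of the enterocyte order, the second list gave 4.84 for Reg1, 6.18 for Reg3b and 4.27 for Reg3g. The summed share of the first list gave 6.61 for Reg3b and 5.01 for Reg3g, cells of at least 17601 UMIs 5.59 for Reg1, 6.33 for Reg3a, 5.66 for Reg3b and 4.52 for Reg3g, and thinned UMIs 8.55 for Reg3a and 7.35 for Reg3b. The decile of onset moved to 5 for Reg1, 6 for Reg3a, 6 for Reg3b and 5 for Reg3g with 10% of the highest decile as the mark. It moved to 6 for Reg1, 8 for Reg3b and 6 for Reg3g with the summed share, and to 10 for Reg3b with the second list. A second thinning and leaving out the cell with most UMIs of the gene were added after seeing the data. The second thinning moved the onset of Reg3g to decile 6, and neither moved another onset or a quintile ratio past its interval. Correlations with the enterocyte score stayed within 0.1. For Reg3a, with 0 UMIs at day 3, the mean over cells and the added UMI give no ratio. The causes were not tested. With 1 library per day, no value here carries the spread between cultures, and Reg1, Reg3a and Reg3b at day 3 rest on 25, 0 and 10 UMIs.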
